A study of Mus musculus with 20 samples.

Results

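The entries described here are rows of a mouse microRNA (miRNA) table: mmu-miR-3535, mmu-miR-5121, mmu-miR-6481, mmu-miR-12188-5p, mmu-miR-6236, mmu-miR-6238 and mmu-miR-6240, written without the species prefix mmu from here on. They are 7 of the 1481 entries measured by small RNA sequencing of primary cortical neurons. They were picked by name because earlier results on these libraries showed them among the largest increases after oxygen and glucose deprivation (OGD), a culture model of ischaemic stroke. Their levels under OGD and in normoxia are therefore given as a description, with no test. The genotype comparisons below use the same libraries as that choice.

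The neurons came from the cortices of day 15 mouse embryos and had been cultured for 7 days. They were either wild type or lacked ciRS-7 (Cdr1as), a brain-enriched circular RNA with many binding sites for miR-7, and both genotypes carried the strain label C57BL/6N-Cdr1asem1Nikr. For 12 hours, normoxic cultures received medium with 25 mM glucose and 0.2 mM pyruvate in a 37 °C incubator at 5% CO2. OGD cultures received the same base medium without these additions and were held at 1% O2, 5% CO2 and 37 °C for the same time. Each of the 4 combinations of genotype and treatment had 5 libraries of total RNA. Nothing in the labels says whether the 5 came from separate animals or cultures, so the p-values measure the spread between these libraries, which may be technical.

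Library totals ran from 1160582 to 12477032 reads, and treatment and depth went together: OGD libraries held 1160582 to 4374002 reads and normoxic libraries 2492065 to 12477032. Levels are in CPM, the reads of an entry per 1000000 reads of its library as scaled by the authors. Not detected (0 reads) allows up to 3 reads, or from 0.249 to 2.55 CPM depending on the library, counting error only. The neuron-enriched miR-124-3p, miR-9-5p, miR-128-3p and miR-138-5p summed to between 287537 and 385903 CPM in every library. The 3 miRNAs of microglia and blood cells (miR-142a-3p, miR-142a-5p and miR-223-3p) summed to at most 4.39 CPM, and the 2 endothelial miR-126a arms to between 269 and 393 CPM. In bulk RNA, fewer cells of a type and less RNA per cell cannot be told apart. The low-oxygen miRNA miR-210-3p was higher after OGD in both genotypes (log2 fold change 2.49 in wild type, limma adjusted p 1.0e-06, and 2.08 in knockout, adjusted p 2.3e-05). One library stood apart for the entries described here. In wild-type normoxic replicate 5, the shallowest normoxic library, all 7 were higher than in the other 4 libraries of its group, so fold changes, correlations and genotype differences are also given without it.

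A typical miRNA is cut from a hairpin by Drosha and Dicer and is loaded into an Argonaute protein, where its seed (bases 2 to 8) pairs with target mRNAs. Small RNA libraries also take up fragments of other short RNAs that fall in the same size range. Among these are small nucleolar RNAs (snoRNAs), which guide the modification of ribosomal RNA, and transfer RNAs (tRNAs), which stressed cells are known to cleave. Box C/D snoRNAs carry a short box C near their 5′ end with the core letters UGAUGA. An entry in a miRNA table can therefore count reads that also belong to another annotated RNA.

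The mature sequences are shown because they define each entry and because 3 of them recur in other RNA. They are from RefSeq (GRCm38.p6), 5′ to 3′, with the seed in capitals.
miR-3535: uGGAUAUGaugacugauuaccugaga
miR-5121: aGCUUGUGaugagacaucucc
miR-6481: cACUGAAAaugcuuagaug
miR-12188-5p: uAGAAGAGcuuucgcuggcccaga
miR-6236: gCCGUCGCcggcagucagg
miR-6238: uUAUUAGUcaguggaggaaaug
miR-6240: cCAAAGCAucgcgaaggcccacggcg
No pair of the 7 had the same seed. Of the 1248 entries with a RefSeq sequence (84.3% of 1481), the only one sharing a seed with any of them was miR-330-3p, which has the seed of miR-6240. The level of miR-330-3p was 68.8 CPM in wild-type normoxia and 59.9 CPM in wild-type OGD, and it was not called (log2 fold change -0.21, limma adjusted p 0.331), although it was called lower when libraries were centred on their median (-0.77, adjusted p 0.00044).

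Of these sequences, 3 were found whole, without a mismatch, inside another annotated RNA: miR-3535, miR-5121 and miR-6481. The search covered 3332 snoRNA, snRNA, rRNA and mitochondrial transcripts of GENCODE M21. It held no nuclear tRNA and no rRNA longer than 1849 bases, so the large 28S rRNA was not analysed here. The 3 RNAs are printed as DNA letters, 5′ to 3′, with the stretch identical to the mature entry in capitals.
Gm24148 (holds miR-3535): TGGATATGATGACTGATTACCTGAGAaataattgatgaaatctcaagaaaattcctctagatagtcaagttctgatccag
Snord33 (holds miR-5121): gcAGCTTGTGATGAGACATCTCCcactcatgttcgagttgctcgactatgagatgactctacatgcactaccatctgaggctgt
mt-Tf (holds miR-6481): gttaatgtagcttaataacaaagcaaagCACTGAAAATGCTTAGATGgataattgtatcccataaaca
The miR-3535 sequence was bases 1 to 26 of the 80 bases of the snoRNA Gm24148, and that of miR-5121 was bases 3 to 23 of the 84 bases of Snord33. Both begin at or next to the 5′ end of a snoRNA and hold the letters UGAUGA. The miR-6481 sequence was bases 29 to 47 of the 68 bases of mt-Tf, the mitochondrial tRNA for phenylalanine.

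**Figure D1:**
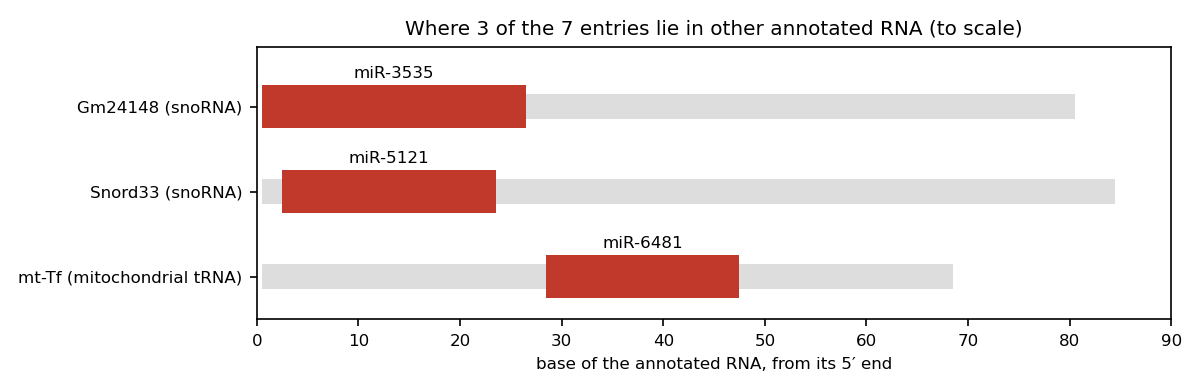
Position of the exact matches in 3 other annotated RNAs. The x axis is the base of the RNA counted from its 5′ end, grey bars are the whole RNAs (80, 84 and 68 bases) and red bars the bases identical to the named entry: those of miR-3535 and miR-5121 start at base 1 and base 3, and that of miR-6481 at base 29.

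In the genome, the snoRNA matches are at the loci of the miRNA entries themselves and the tRNA match is not. RefSeq places miR-3535 at chr1:86352062-86352087 on the minus strand, inside Gm24148, which lies within Ncl, the gene of the nucleolar protein nucleolin, on the same strand. It places miR-5121 at chr7:45126925-45126945 on the minus strand, inside Snord33 within Rpl13a, a ribosomal protein gene. This stretch is intronic except in 2 Rpl13a transcripts annotated as retained introns, and the protein-coding gene Gm45713 also spans it. The locus of miR-6481 is at chr3:99199367-99199385 on the minus strand, on the opposite strand of the gene Wars2, whereas the identical letters of mt-Tf are in the mitochondrial genome. Reads of the 2 places cannot be told apart by these 19 bases.

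The other 4 entries had no match in the RNAs searched, with or without 1 mismatch. The miR-12188-5p sequence lies at chr17:25160503-25160526 on the plus strand, in exon 25 of Clcn7, the gene of a lysosomal chloride transporter, where it is coding sequence in 3 transcripts and untranslated in 1 annotated for nonsense-mediated decay. The loci of miR-6236 (chr9:110281353-110281371, plus strand), miR-6238 (chr7:53891796-53891817, minus strand) and miR-6240 (chr5:114851973-114851998, plus strand) overlap no other GENCODE gene than their own.

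Exact matches to other RNA were found for 3 of the 7 entries (42.9%) and for 17 of the 1241 other entries with a sequence (1.37%). In other GENCODE transcripts, such as mRNAs and long noncoding RNAs, 2 of 7 were found whole (miR-12188-5p and miR-5121; 28.6%), near the share of the others (266 of 1241, or 21.4%). The letters UGAUGA were in 2 of 7 (miR-3535 and miR-5121) and in 8 of the 1241 others (0.645%), searched on the mature strand alone. Of the 7, only miR-12188-5p is named with an arm (5p), against 87.0% of the others. Lengths of 24 bases or more were seen in 3 of 7 (miR-3535, miR-6240 and miR-12188-5p), against 8.14% of the others. The precursors folded less stably than most in RNAfold: the median energy per base was -0.26 kcal/mol, with a range of -0.37 to -0.20, against a median of -0.42 over the others. A median of 73.1% of the mature bases were paired, against 81.8%. The choice of members used no sequence, but these shares are descriptions of a list picked by name.

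The 2 entries that lie in snoRNAs were the most and the third most abundant of the 7 after OGD. Normoxic libraries had miR-3535 at 89.5, 89.5, 102, 109 and 602 CPM in wild-type replicates 1 to 5 and 102, 293, 74.3, 271 and 169 CPM in the knockout. After OGD it was 2821, 3178, 5098, 3418 and 3957 CPM in wild type and 2342, 1867, 3092, 2329 and 4658 CPM in the knockout. Every OGD library was thus above every normoxic library, and the highest normoxic value was that of wild-type replicate 5. By mean level miR-3535 went from rank 160 to rank 35 of all entries in wild type and from 163 to 41 in the knockout.

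The normoxic level of miR-5121 was 32.2, 35.5, 40.7, 41.4 and 79.3 CPM in wild type and 37.3, 65.4, 38.4, 58.7 and 40.2 CPM in the knockout. OGD libraries held 365, 456, 578, 348 and 524 CPM in wild type and 326, 283, 409.7, 378 and 560.0 CPM in the knockout. The treatments did not overlap in either genotype, and in wild-type normoxia replicate 5 was 2.12 times the mean of the other 4, less than for the other 6 entries.

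The entry miR-6481, whose letters recur in a mitochondrial tRNA, rested on few reads in normoxia. Its normoxic level was 2.02, 1.75, 2.23, 1.32 and 10.2 CPM in wild type (7 to 27 reads) and 1.25, 5.08, 3.58, 4.86 and 1.78 CPM in the knockout (15 to 52 reads). Under OGD the values were 43.7, 88.0, 46.7, 55.6 and 91.9 CPM in wild type and 42.9, 43.8, 43.1, 61.1 and 77.5 CPM in the knockout. Here too all OGD libraries exceeded all normoxic ones. Which libraries were highest differed from the other entries: wild-type OGD replicate 3, high for the other 6, was among the lower values for miR-6481.

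The entry in the coding exon of Clcn7, miR-12188-5p, was the rarest in normoxia. It had 2, 8, 9, 4 and 20 reads in wild-type normoxia, or 0.238, 1.00, 1.11, 0.756 and 7.56 CPM, and 0.998, 3.12, 1.02, 3.37 and 1.45 CPM in knockout normoxia. After OGD it was 28.8, 39.8, 84.1, 45.2 and 48.2 CPM in wild type and 21.1, 24.9, 32.3, 32.3 and 50.7 CPM in the knockout. All 10 OGD values exceeded the normoxic ones. The other arm of the same precursor, miR-12188-3p, looked at after its values were seen, had 3 reads or fewer in every library, against 58 to 117 reads of miR-12188-5p in the OGD libraries.

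Among the 3 entries with neither a match nor a host gene, miR-6240 was the most abundant. Its normoxic level was 15.3, 19.6, 17.0, 22.5 and 183 CPM in wild type and 19.5, 95.9, 14.3, 93.9 and 46.2 CPM in the knockout. The OGD values were 472, 668, 1100.0, 741 and 708 CPM in wild type and 445, 335, 578, 534 and 923 CPM in the knockout. Knockout normoxic replicates 2 and 4 were high and replicates 1 and 3 low, a split also seen in miR-6238 and miR-3535.

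The normoxic level of miR-6238 was 5.71, 7.37, 5.70, 10.6 and 86.5 CPM in wild type and 7.24, 35.01, 4.26, 41.8 and 21.9 CPM in the knockout. After OGD it was 227, 246, 586, 218 and 380.0 CPM in wild type and 173, 121, 327, 269 and 429.6 CPM in the knockout. The treatments did not overlap in either genotype.

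For miR-6236 the normoxic values were 4.28, 3.37, 3.96, 5.48 and 21.5 CPM in wild type and 6.32, 6.70, 5.63, 6.64 and 7.68 CPM in the knockout. The OGD libraries had 41.5, 57.5, 123, 44.5 and 66.8 CPM in wild type and 29.3, 25.8, 41.5, 39.2 and 89.7 CPM in the knockout. The knockout normoxic libraries were close together for this entry, without the split seen in miR-6240. In wild type the treatments came nearest to each other for miR-6236: the lowest OGD library was 1.93 times normoxic replicate 5.

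**Figure D2:**
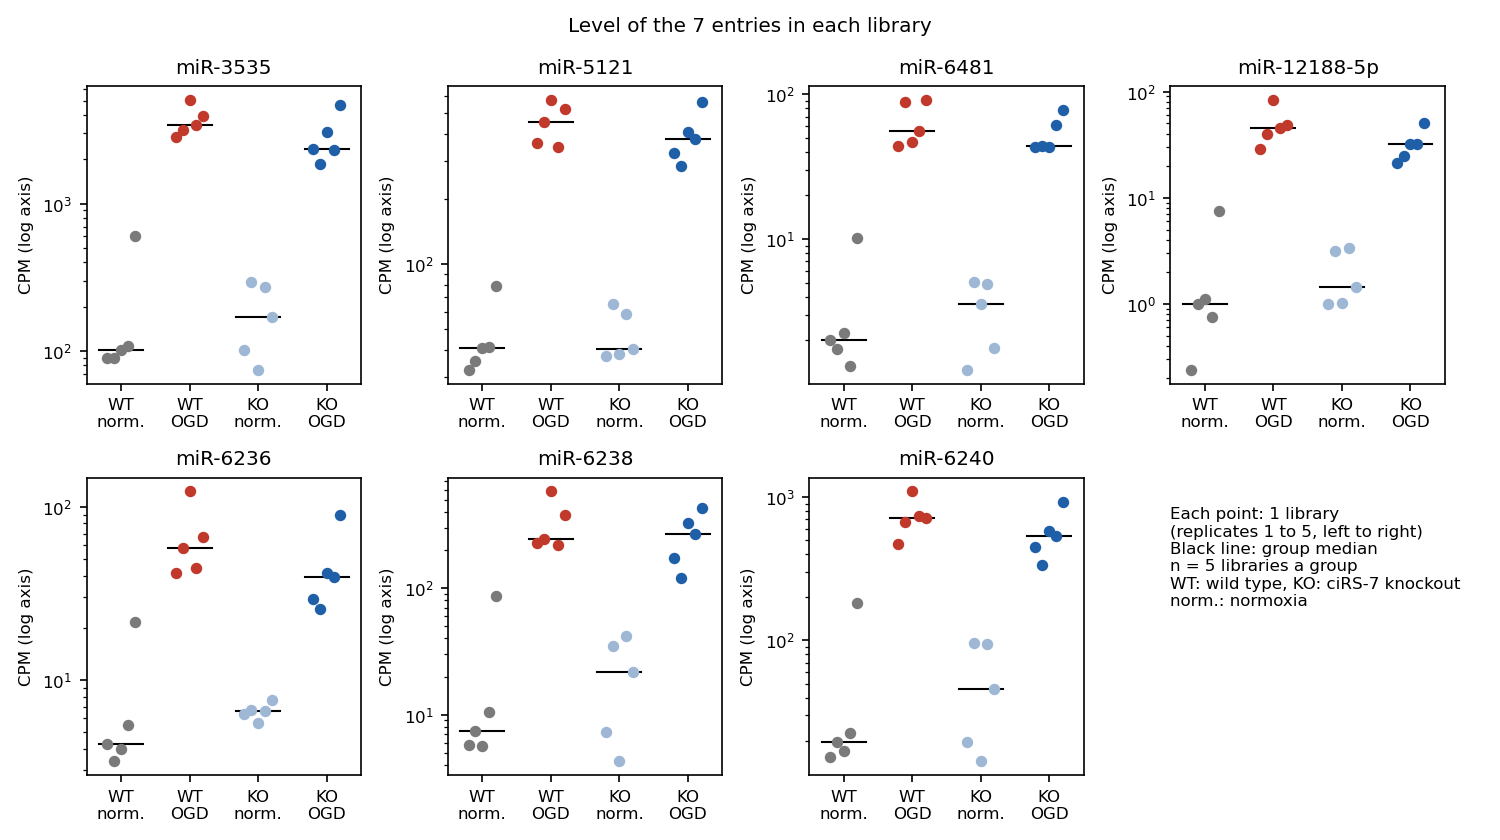
Level of each entry in every library. The y axes are CPM on log axes, each point is 1 of 5 libraries a group in order of replicate number, and black lines are group medians. The OGD points lie above all normoxic points of the same genotype in all 7 panels, and wild-type normoxic replicate 5 lies above the rest of its group.

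For all 7 entries, then, the OGD libraries lay wholly above the normoxic ones in wild type and in the knockout. This held for 13.5% of the 1478 entries tested in wild type and 15.3% of the 1479 in the knockout, but the choice of members fixes it here. The log2 fold changes on the log2(CPM + 0.5) scale ran from 3.27 (miR-6236, SE 0.39) to 4.71 (miR-12188-5p, SE 0.46) in wild type, with a median of 4.58. In the knockout they ran from 2.54 (miR-6236, SE 0.26) to 4.09 (miR-3535, SE 0.32), with a median of 3.78. Over all entries the medians were 0.32 and 0.24, and 18.7% and 18.8% were called higher (limma, adjusted p under 0.05; 276 entries in wild type and 278 in the knockout). Called lower were 65 entries in wild type (4.4%) and 85 in the knockout (5.75%), none of them a member.

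The number of calls in each direction depended on scaling. With libraries centred on the median of the abundant entries, which shifts all OGD effects down by 0.56 in wild type and 0.51 in the knockout, 108 entries were higher and 265 lower in wild type and 112 and 324 in the knockout. The members stayed higher in OGD with centring, with medians of 4.02 and 3.27. Quantile normalization gave 141 higher and 191 lower in wild type and 141 and 186 in the knockout, and medians of the members of 4.07 and 3.34. Thinned to the depth of the shallowest library, where depth no longer differs, the medians were 4.63 and 3.99.

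Ranked by wild-type fold change among the 425 entries whose log2 CPM averaged 3 or more, the order was miR-12188-5p at rank 1, then miR-3535, then miR-6238, then miR-6240 at rank 4, with miR-6481 at rank 6, miR-5121 at rank 15 and miR-6236 at rank 18. The average is over both treatments, so miR-12188-5p, miR-6481 and miR-6236, at means of 2.13, 3.50 and 7.73 CPM in wild-type normoxia, reached this abundance only through the OGD libraries where they are high. The list is not the top of this ranking alone. Entries that rose as much but are not members include miR-7087-3p (4.39, rank 5) and let-7f-2-3p (4.26, rank 7), and the entry just after miR-6236 was miR-1195 (3.27). Without wild-type normoxic replicate 5, the entries at ranks 1 to 4 stood in another order among themselves: miR-6238 (5.34), miR-12188-5p (5.25), miR-6240 (5.23) and miR-3535 (5.21). In the knockout, the 7 took ranks 1 to 5, 10 and 17 of 420.

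Together the 7 made up 0.0138% to 0.105% of the reads of a wild-type normoxic library and 0.372% to 0.773% of a wild-type OGD library. In the knockout the shares were 0.0141% to 0.0512% and 0.262% to 0.673%. Most of this was miR-3535, which supplied 52.5% to 60.8% of the 7 entries' reads in the normoxic libraries and 64.0% to 70.5% in the OGD libraries.

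Wild-type normoxic replicate 5 held between 2.12 times (miR-5121) and 11.8 times (miR-6238) the mean level of the other 4 libraries of its group. For miR-3535 it was 6.18 times and for miR-6240 9.83 times. It remained below every OGD library for each of the 7. In that library miR-210-3p was at 12.8 CPM, the lowest of its group, against 14.4 to 28.7 CPM in the others. Its microglia and blood list summed to 0.378 CPM, and its neuron list was the lowest of its group, at 298889 CPM. Its endothelial list (387 CPM) and its erythroid list (miR-451a and miR-144-3p, 2.64 CPM beside a group median of 0.832 CPM) were the highest of the group. Its list for mural cells of vessels (miR-143-3p and miR-145a-5p) was 36.6 CPM, below the group median of 41.0 CPM. The part of other cell types in its high values was not tested. Its depth of 2492065 reads was also the lowest of the normoxic libraries, and the part of depth in its high values was not tested. Without it, the wild-type fold changes were larger, at 5.34 for miR-6238, 5.23 for miR-6240 and 3.56 for miR-5121.

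The 7 entries deviated from their group means together, library by library. On the log2 scale all 7 were above the mean in wild-type normoxic replicate 5 (by 0.86 to 2.81) and in knockout OGD replicate 5 (by 0.56 to 1.13). They were also above it in knockout normoxic replicates 2 (by 0.03 to 1.21) and 4 (by 0.02 to 1.35). In these 2 libraries miR-6236 was the lowest, nearly at its group mean. The high values of wild-type normoxic replicate 5 raise the mean of that group, which places its replicates 1 to 4 below it. All 7 were below the mean in wild-type OGD replicate 1, knockout normoxic replicate 1 and knockout OGD replicates 1 and 2. In wild-type OGD replicate 3, the shallowest library, 6 were above and miR-6481 was below by 0.41.

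**Figure D3:**
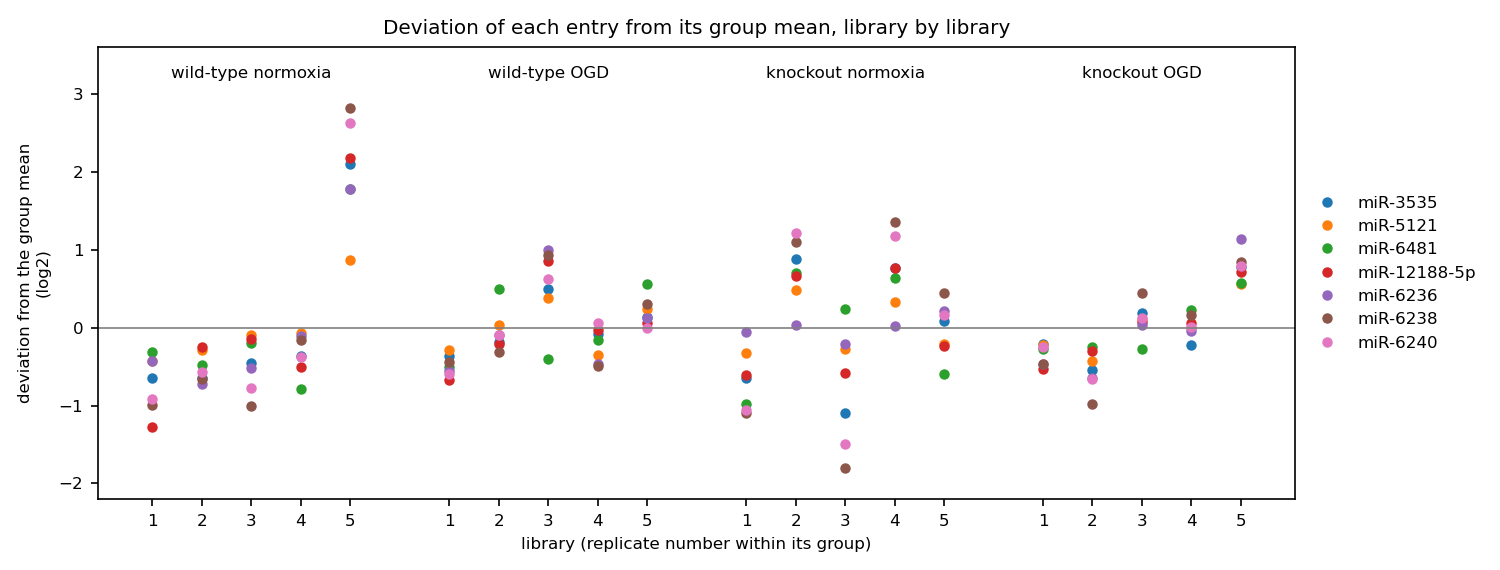
Deviation of each entry from the mean of its group. The x axis lists the 20 libraries by group and replicate number, the y axis is the difference from the group mean in log2(CPM + 0.5), and each colour is 1 entry. The points of a library mostly lie on the same side of 0, and wild-type normoxic replicate 5 reaches 2.81.

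The covariation was measured over the 10 OGD and, separately, the 10 normoxic libraries, both genotypes together, as 56 relations: 21 pairs of entries and 7 relations with depth in each. In the OGD libraries all 21 pairs had a positive Pearson's r, from 0.35 to 0.96 with a median of 0.90, and 15 had a permutation p under 0.05 after adjustment over the 56. Those 15 are the pairs among the 6 entries other than miR-6481. The pair miR-3535 and miR-6240 had the highest r of 0.96 (Spearman's rho 0.95, two-sided permutation p 9e-05, adjusted p 0.00062; r 0.91 without the 2 libraries farthest from the median of miR-3535). The pairs of miR-6481 had r between 0.35 and 0.57, for example 0.42 with miR-3535 (rho 0.47, permutation p 0.224, adjusted p 0.246; r 0.61 without the 2 farthest libraries). Over all 89253 pairs of the 423 entries at this abundance or above, the median r in the OGD libraries was 0.05. In those libraries 0.268% of pairs exceeded the members' median and 22.7% exceeded the members' lowest r.

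In the normoxic libraries all 21 pairs had an r of 0.72 to 0.99, with a median of 0.88, and all had an adjusted permutation p under 0.05 (13 by Spearman's rho). Over the same 89253 pairs the median r in normoxia was 0.03, with 0.959% above the members' median and 5.28% above their lowest. The highest was that of miR-6238 and miR-6240 at 0.99 (rho 0.98, permutation p 2e-05, adjusted p 0.00022), and it was 0.98 without the 2 libraries farthest from the median of miR-6238. The lowest was that of miR-6481 and miR-6236 at 0.72 (rho 0.49, permutation p 0.023, adjusted p 0.0339), which fell to 0.15 without the 2 farthest. As deviations from the mean of each genotype, 15 of the 21 pairs were called in the OGD libraries and 20 in the normoxic ones (15 and 10 by rho). Much of the normoxic relation rested on wild-type replicate 5. Without it, 11 of the 21 pairs were called (2 by rho), the median r was 0.77 and the range 0.29 to 0.99. With the 2 libraries farthest from the median also left out, the median r was 0.42, the lowest -0.52, and 16 of the 21 were positive.

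Depth moved with the levels among OGD libraries. All 7 had a negative r with log2 total reads, from -0.83 to -0.26, and 4 were called: miR-12188-5p (r -0.83, rho -0.87, permutation p 0.00299, adjusted p 0.0054; r -0.81 without the 2 libraries farthest from the median depth), miR-6240 (r -0.76, rho -0.85, adjusted p 0.0166), miR-3535 (r -0.67, rho -0.79, adjusted p 0.0475) and miR-6236 (r -0.67, rho -0.73, adjusted p 0.0482). As deviations from the genotype mean only miR-12188-5p (adjusted p 0.0101) and miR-6240 (adjusted p 0.0313) were called by r and none by rho, with miR-3535 and miR-6236 at an adjusted p of 0.0852 each. With centred libraries the same 2 were called by r, and 3 by rho (these and miR-3535, adjusted p 0.0241). In normoxia the 7 values of r ran from -0.68 to -0.41 and none was called by permutation (lowest adjusted p 0.0952). Without wild-type replicate 5 they ran from 0.01 to 0.31. The part of depth in the covariation was not tested. All values of a library share its total as denominator.

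**Figure D4:**
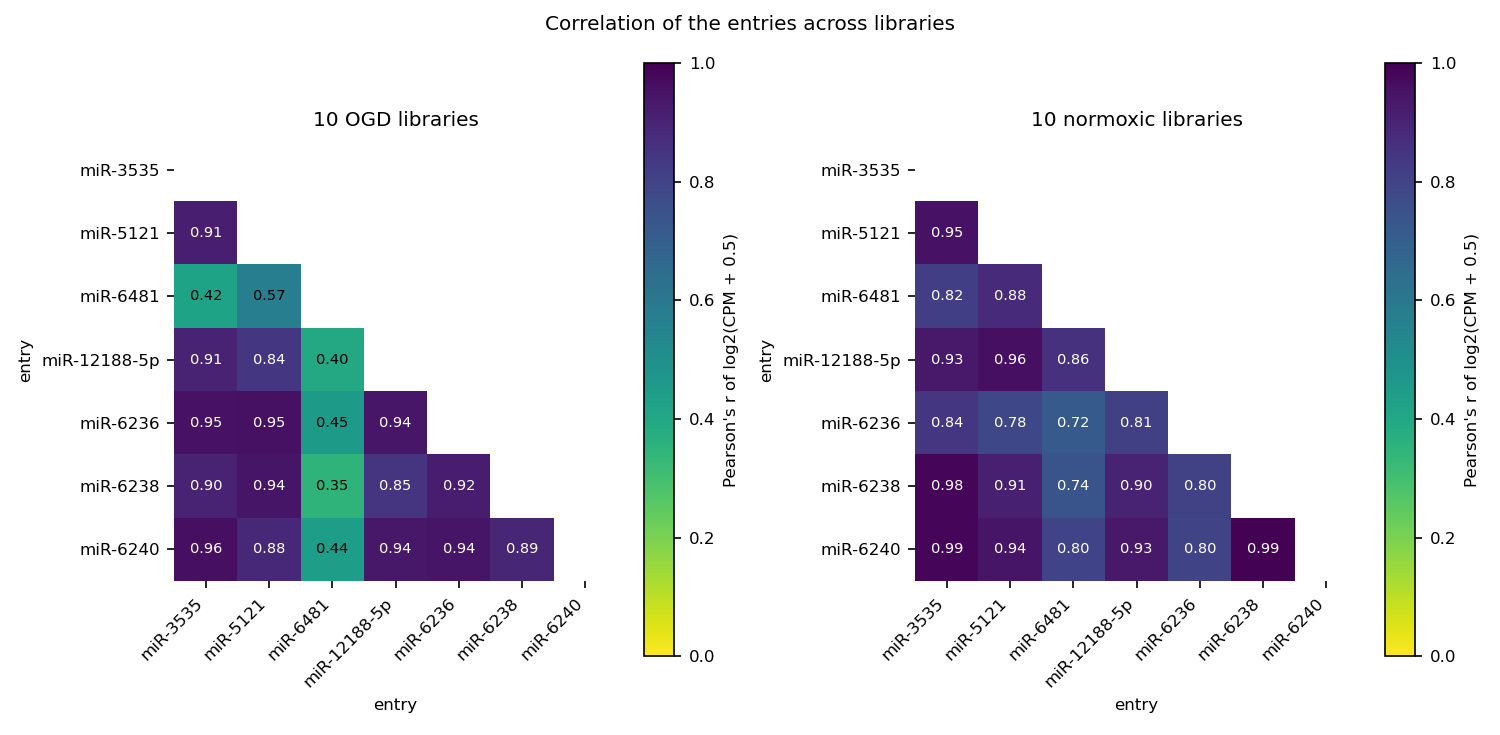
Pearson's r of log2(CPM + 0.5) for each pair of entries over 10 OGD libraries (left) and 10 normoxic libraries (right); both axes list the entries and colour gives r. Among OGD libraries the cells of miR-6481 (0.35 to 0.57) are lower than the others (0.84 to 0.96), and in normoxia all cells are at or above 0.72.

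Among the 416 other entries at this abundance, the 5 whose deviations over the 20 libraries were most like the members' mean deviation were miR-3470a (r 0.96), miR-6239 (0.96), miR-2137 (0.96), miR-706 (0.95) and miR-690 (0.95). The members themselves had r between 0.80 and 0.98 with that mean, to which each contributes, and the median over the 416 was -0.17. Without wild-type normoxic replicate 5, a check added after the data were seen, the 5 had r of 0.91, 0.94, 0.91, 0.93 and 0.88, and the members 0.58 to 0.95. In that check 4 of the 5 were still among the 5 most alike, and miR-690 ranked 7. All 5 are named without an arm, and none of the 4 with a RefSeq sequence matched other annotated RNA exactly. All 5 were higher after OGD in both genotypes, with log2 fold changes of 2.58 to 3.90 in wild type and 2.12 to 2.94 in the knockout. At means of 5.03 and 4.34 CPM in wild-type and knockout normoxia, miR-706 reached this abundance only through the OGD libraries where it is high. Its rise is therefore a description. For the other 4 the limma adjusted p was at most 5.1e-05. The level of miR-690 in wild-type normoxia was 425 CPM in replicate 5 and 30.1 ± 6.52 CPM in the other 4 libraries (SD). With all 5 it went from 109 ± 177 to 778 ± 202 CPM in wild type and from 80.6 ± 53.4 to 521 ± 159 CPM in the knockout (SD, n = 5).

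Entries other than the members that are named without an arm, as 6 of the 7 members are, were called higher after OGD in 51 of 160 cases in wild type (31.9%, beside 18.7% of all entries) and lower in 1. In the knockout, 40 of 161 were higher (24.8%, beside 18.8%) and 1 lower. Their median log2 fold changes were 0.59 and 0.44, beside 0.32 and 0.24 over all entries. No test compared this list with the other entries.

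The names miR-6235 to miR-6244 form a block that holds 3 members, and 2 other entries of it were in the tables. One of them, miR-6239, was at 8.20, 10.4, 10.03, 10.01 and 44.6 CPM in wild-type normoxia and between 98.8 and 225 CPM after OGD. In the knockout it was between 7.50 and 23.5 CPM in normoxia and between 64.4 and 197 CPM after OGD. Its log2 fold changes were 3.32 (SE 0.34, limma adjusted p 1.0e-06) and 2.83 (SE 0.31, adjusted p 3.7e-06). The second, miR-6237, had at most 2 reads in any library, so no change was detectable at this depth.

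Other entries found whole in other annotated RNA were set beside the members. Of 17 such non-members, all in snoRNAs or the related scaRNAs, 4 rose and 1 fell in wild type (23.5% higher, against 18.7% of all entries tested), and 6 rose and 1 fell in the knockout (35.3% against 18.8%). Their median log2 fold changes were 0.28 and 0.26, beside 0.32 and 0.24 over all entries.

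Among the 17, 3 had fold changes near those of the members. The level of miR-1291, bases 1 to 26 of Snora34, was 1.90, 1.00, 1.11, 1.70 and 2.64 CPM in wild-type normoxia and 19.2, 16.5, 17.8, 18.8 and 14.6 CPM in wild-type OGD (log2 fold change 3.09, SE 0.25, limma adjusted p 1.8e-07). The knockout gave 3.04 for this entry (SE 0.27, adjusted p 3.8e-07). Both arms of miR-677, which lie in a snoRNA of 72 bases, rose as well, miR-677-5p by 2.80 and 2.99 and miR-677-3p by 2.93 and 2.51 (adjusted p at most 0.00016). The sequence of miR-677-5p begins at base 3 of this snoRNA and that of miR-677-3p at base 47. These 3 were singled out after their values were seen.

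The 5 most abundant of the 17 had smaller differences. By mean level they were miR-1839-5p, miR-1843a-5p, miR-1843b-5p, miR-3068-3p and miR-1843a-3p. The scaRNA entry miR-1839-5p had the highest level, at 1199 and 1409 CPM in wild-type normoxia and OGD (log2 fold change 0.23, SE 0.11, limma adjusted p 0.138). In the knockout it was called higher (0.30, adjusted p 0.0075). With centred libraries its values were negative in both genotypes, called lower in wild type (-0.33, adjusted p 0.0292) and not called in the knockout (-0.21). The rise of miR-1843a-5p (0.45, adjusted p 0.0069, and 0.32, adjusted p 0.0114) also turned negative with centring (-0.11 and -0.19). The level of miR-1843a-3p fell by 0.60 in wild type (adjusted p 0.0108) and by 0.58 in the knockout (adjusted p 0.0049). The values of miR-1843b-5p (-0.03 and -0.26) and miR-3068-3p (0.10 and 0.22) did not pass the test. With centring miR-1843b-5p was called lower in both genotypes (-0.59 and -0.77), and miR-3068-3p turned negative (-0.46, called, and -0.29, not called). The rise of miR-3068-5p in the knockout (0.41, adjusted p 0.0328), outside the rule for naming, turned to -0.10 with centring. The remaining 8 of the 17 had a mean level of 0.114 to 4.23 CPM.

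Loss of ciRS-7 was compared with wild type first in normoxia. None of the 7 differed between genotypes (limma adjusted p 0.984 to 0.995), and no entry of 1481 did (0%; 47 had an unadjusted p under 0.05, or 3.17%, and none of these was a member). Differences, knockout minus wild type, were 0.10 to 0.48 on the log2 scale and the widest 95% interval, that of miR-6238, reached from -1.15 to 1.99. Without wild-type replicate 5 the differences were 0.32 to 1.14, and none was called. Then miR-6236 (0.58, limma p 0.0035, adjusted p 0.557) and miR-12188-5p (0.90, limma p 0.034, adjusted p 0.788) had an unadjusted p under 0.05, as did 89 of all 1481 entries in that fit (6.01%).

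After OGD the means of all 7 were lower in the knockout, while the libraries of the 2 genotypes overlapped for each (8 of 1481 entries, or 0.54%, lay wholly below wild type). The mean of miR-3535 was 3694 ± 887 CPM in wild type against 2858 ± 1098 CPM in the knockout (SD, n = 5), and that of miR-6240 was 738 ± 228 and 563 ± 222 CPM. Differences ran from -0.59 (miR-6236, SE 0.25) to -0.23 (miR-5121, SE 0.15), with a median of -0.41 beside -0.05 over all 1481 entries. No entry was called (0%; limma adjusted p of the 7 between 0.474 and 0.858). At an unadjusted p under 0.05 there were 108 entries (7.29%), 79 of them lower (5.33%), and 4 of the 7 members: miR-3535 (-0.41, p 0.0146), miR-12188-5p (-0.57, p 0.0154), miR-6236 (-0.59, p 0.0271) and miR-6240 (-0.42, p 0.0288), from limma. All 4 failed the correction over all entries.

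The number of calls changed with 1 library left out and on another scale. Without knockout OGD replicate 5, in which all 7 entries were the highest of their group, 22 entries were called and 3 members among them. These were miR-3535 (-0.61, SE 0.13, limma adjusted p 0.0055), miR-6236 (-0.87, SE 0.21, adjusted p 0.0162) and miR-6240 (-0.62, SE 0.15, adjusted p 0.018), while miR-12188-5p was at an adjusted p of 0.0546. Without knockout OGD replicate 2, in contrast, the median difference of the 7 shrank from -0.41 to -0.25, and without wild-type OGD replicate 3 to -0.29 (range -0.36 to -0.12), with no entry called. On the deposited values 72 entries were called, 23 higher and 49 lower, with no member among them (lowest adjusted p of a member 0.0658). Over the alternatives the adjusted p of miR-3535 ran from 0.0055 to 0.887. Since the 7 vary together between libraries, their differences are not 7 separate observations.

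The OGD effect was smaller in the knockout by estimate for all 7, with an interaction from -0.93 (miR-12188-5p, SE 0.60) to -0.33 (miR-5121, SE 0.30), and none was called (limma adjusted p 0.99). Across 1481 entries 0% were called, and 74 (5%) had an unadjusted p under 0.05, of which none was a member. The median interaction of the 7, -0.73 with all libraries, depended on single libraries. It shrank to -0.43 without knockout normoxic replicate 4 (range -0.74 to -0.23), to -0.49 without wild-type OGD replicate 3 and to -0.50 without knockout normoxic replicate 2. Without wild-type normoxic replicate 5 the interaction was larger, at -1.56 to -0.55. All 7 then had an unadjusted limma p under 0.05, from 0.002 (miR-12188-5p) to 0.045 (miR-6481), as did 115 of all 1481 entries in that fit (7.77%). None of the 7 was called (adjusted p between 0.23 and 0.612), and they share the same libraries. The interaction is a difference of the OGD effects for which the entries were picked, so its p-values are not independent of that choice.

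**Figure D5:**
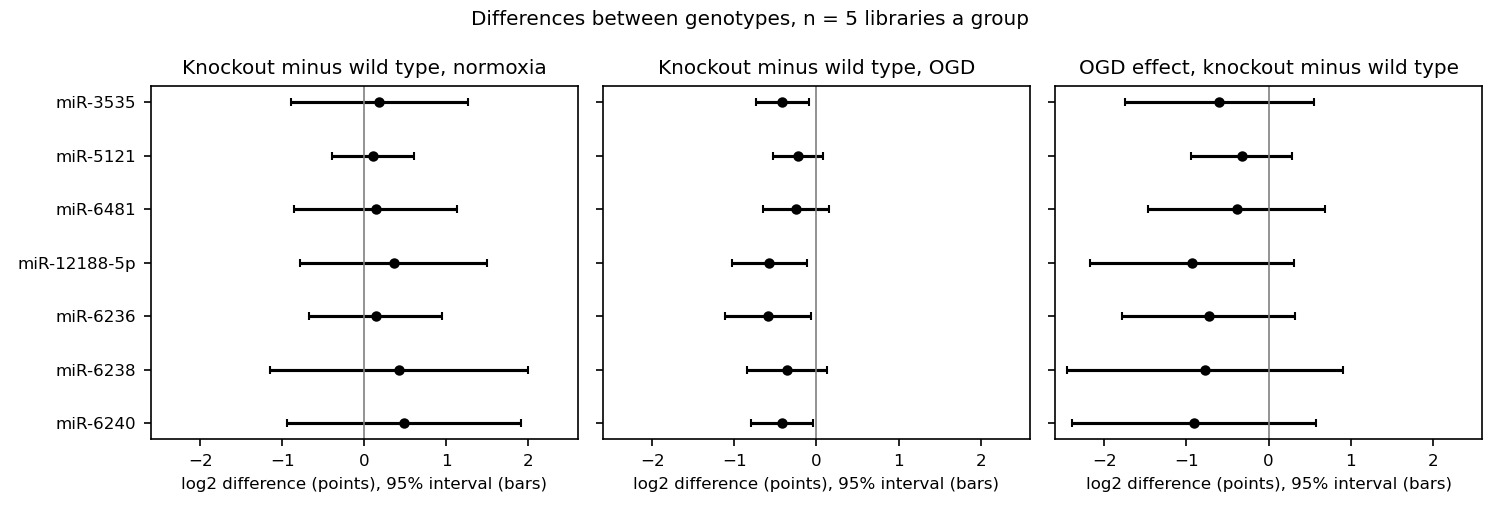
Differences between genotypes for each entry, with n = 5 libraries a group. The x axes are log2 differences, knockout minus wild type in normoxia (left), after OGD (middle) and in the OGD effect (right); points are limma estimates and bars their unadjusted 95% intervals. After OGD the points lie between -0.59 and -0.23, and the bars of 4 entries do not reach 0.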

How the data were processed

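Total RNA (TRIzol, DNase) was made into size-selected small RNA libraries with a NEBNext kit, per the labels' protocols. The submitters' processing notes name the build mm10; the aligner and counter are not given in the sources used here. The authors deposited 6 tables, 1 for each pair of groups, whose values are a score: reads times a library factor, raised to a power of 0.106 to 0.118, with the highest and lowest of each group of 5 limited at the 0.16 and 0.84 quantiles. No header states this; it was read from the values. Undoing both steps gave whole reads (within 0.05) for 100% of values, and none of 59070 comparisons of the same value between tables differed.

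CPM used the authors' library factors. Comparisons were fitted with limma 3.58.1 (trend, R 4.3.3) on log2(CPM + 0.5) over all entries of a table, with Benjamini-Hochberg adjustment at 0.05. Correlations used 100000 permutations. The same fit on the deposited score was an alternative. The method was tested on simulated data of wild-type OGD against normoxia (1478 entries): 96% and 94% of 4-fold rises and falls and 68% of 2-fold changes in either direction were called, and 6.86% of calls were false. Changes were placed only in entries with a mean of at least 1 CPM (713 of the 1478 reach it). The rates of recovery therefore do not cover rarer entries. Sequences came from RefSeq GRCm38.p6 and GENCODE M21, and precursors were folded with RNAfold 2.7.2. Loci were given in GRCm38.p6, the assembly that mm10 denotes.

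The members, lists and tests were chosen with earlier results of these data known. Named beside the 7 members were the 5 entries most alike in their deviations, the miR-6235 to miR-6244 block, the 5 most abundant entries with exact matches to other RNA, and miR-210-3p. Same-numbered libraries were checked for pairing. No column of another series was present.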

Additional observations from a re-analysis of the deposited data

Results flagged for a closer look

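In each group of 5 libraries the highest or lowest value was compared with the spread of the rest by Dixon's criterion (28 groups, 7 entries in 4 groups each; chance sets apart about 1 in 20). In wild-type normoxia replicate 5 was set apart for all 7 entries, at 602 CPM for miR-3535, 79.3 CPM for miR-5121, 10.2 CPM for miR-6481, 7.56 CPM for miR-12188-5p, 21.5 CPM for miR-6236, 86.5 CPM for miR-6238 and 183 CPM for miR-6240. Since the 7 vary together, these are not 7 separate signs. In knockout OGD, replicate 5 was set apart for miR-6236 at 89.7 CPM, while replicates 1 to 4 lay from 25.8 to 41.5 CPM. No other group of the 28 was set apart.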

How the results depend on the processing

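Depth limits miR-12188-5p and miR-6481 most, with 2 to 36 and 7 to 52 reads in normoxic libraries. On the deposited values, 33 entries were called between genotypes in normoxia and 72 after OGD, against 0 in each main result, and no member was among them; the interaction was not run there because the tables differ in their power. Thinning to the shallowest library left 226 calls of OGD in the knockout (363 in the main result). Leaving out 1 library at a time gave 0 to 22 calls between genotypes after OGD, 0 to 3 of them members (3 without knockout OGD replicate 5), and 0 or 1 for the interaction. Without wild-type normoxic replicate 5, 11 pairs covaried in normoxia (21 in the main result). In normoxia some genotype differences changed sign when 1 library was left out, with a range of -0.0168 to 0.32 for miR-5121, -0.044 to 0.583 for miR-6236, -0.0576 to 0.581 for miR-6481 and -0.0362 to 0.709 for miR-3535, each highest without wild-type normoxic replicate 5. The cause of these shifts was not tested.

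Replicate numbers were not taken to pair the libraries, since the labels do not say what they mark and not every same-numbered pair of the 2 treatments correlated over 0.1 (4 of 5 in each genotype, with a range of -0.17 to 0.66 in wild type and -0.21 to 0.49 in the knockout). The best match was the own number for 3 of 5 in wild type and 2 of 5 in the knockout, so a partial pairing is possible. With the replicate number as a block, 389 entries were called for OGD in wild type and 403 in the knockout, and 0 between genotypes in normoxia, after OGD and for the interaction. Allowing 1 mismatch kept 3 members with a match and gave 18 other entries. Pseudocounts of 0.1 and 2, a filter at 1 CPM, quantile normalization, totals without the members and a fit without trend left each total count of calls within 1.5 times the main one, although quantile normalization changed the split of OGD calls from 276 higher and 65 lower to 141 and 191 in wild type, and from 278 and 85 to 141 and 186 in the knockout. As deviations from the genotype mean, or with centred libraries, 2 relations with depth were called among OGD libraries (4 in the main result). The entries most alike without wild-type normoxic replicate 5 were the 1 alternative added after the data were seen.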
